A study of Mus musculus with 6 samples.

Results

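The genes described here are the 8 mouse alpha-2,6-sialyltransferases, St6gal1, St6gal2 and St6galnac1 to St6galnac6, together with the noncoding RNA gene BC018473, which lies between St6galnac2 and St6galnac1 on chromosome 11. They were found as the probe sets whose platform annotation gave exactly 1 gene symbol, that of a member. Each of the 9 genes was measured by 1 probe set, so the 9 probe sets stand for 9 of the 19937 genes measured in this way and for 9 of 34760 probe sets in all. The group was chosen by the measured signals of these 6 arrays, because BC018473, St6galnac2 and St6galnac1 were lower with FOG1, and was then filled up with the rest of the family. The members' own differences in that contrast are therefore given as a description, without a test.

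Messenger RNA of 230-238, a mouse B-cell line, was measured on 6 Affymetrix gene arrays, of which 3 held RNA of cells infected with a plasmid for GFP and FOG1 and 3 of cells infected with a plasmid for GFP only. In both groups the cells grew for 3 days, GFP-positive cells were sorted, and RNA was taken 4 days after the sort, so the control cells share the infection, the reporter and the sort. FOG1, the product of Zfpm1, is a zinc finger cofactor of GATA transcription factors, and the comparison asks what it changes in the RNA of B cells. The labels call the samples of each group biological replicates. They name neither the promoter that drives FOG1 nor the source of the replicates, which may have shared an infection. In that case p-values cover only the spread between these 6 samples, which may be technical.

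Sialyltransferases are enzymes of the Golgi that move sialic acid from the donor CMP-sialic acid onto the ends of glycans, and the family is named for the bond it makes and the sugar it extends. ST6GAL enzymes cap galactose, mainly on N-linked glycans, and the product of St6gal1 forms the ligand of the inhibitory B-cell receptor CD22. ST6GALNAC enzymes extend N-acetylgalactosamine, on mucin-type O-glycans or on gangliosides, which are sialylated glycolipids.

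Zfpm1 itself had signals of 10.21, 10.16 and 10.17 log2 units on the GFP+FOG1 arrays, against 9.41, 9.49 and 9.43 on the GFP arrays, and no array went against its label (limma, log2 change 0.74, SE 0.045, adjusted p = 0.0038). Over all probe sets, pairs of arrays correlated at 0.9925 to 0.9960. All 9 measured B-lineage markers of a list that included Pax5, Ebf1, Blnk, Igll1 and Cd79b had mean signals above the median of all values, 6.9991 log2 units, as did 4 of 6 stromal markers (Col1a1, Col1a2, Pdgfrb and Col3a1), 2 of 7 T-cell, 1 of 8 myeloid and 1 of 6 erythroid and megakaryocyte markers. The summed linear signals of the B-lineage markers were 38221 to 39632 units on the GFP+FOG1 arrays, against 41547 to 42628 units on the GFP arrays. Those of the myeloid markers were 524 to 567 units on the GFP+FOG1 arrays, against 707 to 710 units on the GFP arrays. Both sums were lower on every GFP+FOG1 array, but less so or not at all once 1 or 2 genes were left out. Without Itgam, an integrin chain gene of myeloid cells and the only marker that passed (log2 change -1.11, limma adjusted p = 0.0075), the myeloid sums were 406 to 429 units on the GFP+FOG1 arrays, against 429 to 448 on the GFP arrays. Without Cd79a (log2 change -0.41, limma adjusted p = 0.088) and Cd79b (-0.16, adjusted p = 0.25), which encode the signalling chains of the B-cell receptor, the B-lineage sums were 24365 to 25473 units on the GFP+FOG1 arrays, against 24485 to 25346 on the GFP arrays. These genes were left out after their values were seen, and the part of the markers in the results below was not tested.

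Upstream windows of the members and of the genes flanking BC018473 were taken from RefSeq sequences of build GRCm38.p6, as 300 bases from 250 before to 50 after an annotated start. Windows matched 5 members, with 3 starts for St6gal1 and 1 each for St6gal2, St6galnac3, St6galnac4 and St6galnac6. BC018473, St6galnac1, St6galnac2 and St6galnac5 were not matched. Each window was searched on both strands for GATA with A or T just before it and A or G just after it, the site bound by GATA factors. At least 1 match stood in 2 of the 7 member windows, and in 29.8% of all 32851 windows of the same length. These 2 member windows are printed because they hold a match, shown in capitals. For Snhg16 and Mxra7, the measured genes next to the block on either side, 1 window each is printed. Another window of Mxra7, which overlaps the printed one and holds no match, is left out. The match in the St6gal1 window began at position -89 from the start, and that in the St6gal2 window, read on the opposite strand, at position -248. A match is a description of the letters only.
St6gal1, chr16:23224490-23224789, plus strand: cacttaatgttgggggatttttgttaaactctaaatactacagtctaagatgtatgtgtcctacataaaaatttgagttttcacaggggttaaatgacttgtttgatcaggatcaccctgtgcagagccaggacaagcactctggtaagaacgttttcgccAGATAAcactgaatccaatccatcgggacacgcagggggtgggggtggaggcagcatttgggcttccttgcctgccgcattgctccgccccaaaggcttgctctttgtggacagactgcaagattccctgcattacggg
St6gal2, chr17:55445132-55445431, plus strand: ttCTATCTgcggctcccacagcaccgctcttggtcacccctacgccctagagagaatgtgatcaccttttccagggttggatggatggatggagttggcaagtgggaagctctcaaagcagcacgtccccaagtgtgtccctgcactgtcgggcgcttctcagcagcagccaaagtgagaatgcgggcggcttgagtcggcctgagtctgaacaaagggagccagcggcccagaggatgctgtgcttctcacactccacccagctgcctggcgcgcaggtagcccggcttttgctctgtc
Snhg16, chr11:116671410-116671709, plus strand: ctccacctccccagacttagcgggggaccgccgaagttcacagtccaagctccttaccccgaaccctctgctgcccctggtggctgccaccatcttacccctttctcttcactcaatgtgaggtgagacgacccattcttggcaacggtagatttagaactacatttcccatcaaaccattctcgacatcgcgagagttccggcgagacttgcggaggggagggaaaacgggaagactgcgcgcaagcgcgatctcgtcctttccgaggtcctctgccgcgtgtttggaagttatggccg
Mxra7, chr11:116827997-116828296, minus strand: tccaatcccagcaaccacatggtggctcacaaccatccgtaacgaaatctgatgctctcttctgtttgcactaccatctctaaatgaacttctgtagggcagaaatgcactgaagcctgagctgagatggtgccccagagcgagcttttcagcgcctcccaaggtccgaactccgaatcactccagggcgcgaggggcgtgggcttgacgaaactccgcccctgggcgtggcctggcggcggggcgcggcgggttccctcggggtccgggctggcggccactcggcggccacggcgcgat

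BC018473 is annotated as a long noncoding RNA gene. Its signals (probe set 10382846) were 6.04, 6.12 and 6.23 log2 units on the GFP+FOG1 arrays, against 9.81, 9.82 and 9.86 on the GFP arrays. The groups lay far apart, and the spread within each was small (6.13 ± 0.09 in GFP+FOG1 cells and 9.83 ± 0.02 in GFP cells; SD, n = 3 each). The log2 change of -3.70 (SE 0.059) corresponds to a 13.0-fold lower signal in GFP+FOG1 cells, with a 95% interval of 11.7-fold to 14.3-fold from the limma fit. It was the lowest of the 34760 log2 changes in that fit. In GFP+FOG1 cells the signal lay below the median of all values, where part of it can be background, so the change of the RNA can be larger than this value. As the arrays measure bulk RNA, fewer cells with the RNA and less of it per cell cannot be told apart, here and for the genes that follow.

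St6galnac2 encodes an enzyme that adds sialic acid to the N-acetylgalactosamine of mucin-type O-glycans. Its signals (probe set 10393166) were 7.27, 7.33 and 7.31 log2 units on the GFP+FOG1 arrays, against 8.86, 8.81 and 8.75 on the GFP arrays. The lowest GFP array lay more than a log2 unit above the highest GFP+FOG1 array. The log2 change was -1.50 (SE 0.049), a 2.84-fold lower signal with a 95% interval of 2.62-fold to 3.08-fold, and it ranked 4 of 34760 from the lowest.

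St6galnac1 encodes the enzyme that caps the same sugar before further extension, giving the sialyl-Tn structure. Its signals (probe set 10393373) were 6.80, 6.74 and 6.51 log2 units on the GFP+FOG1 arrays, against 7.56, 7.39 and 7.40 on the GFP arrays. The groups did not overlap, and GFP+FOG1 replicate 3 was the lowest of the 6 arrays. The log2 change was -0.77 (SE 0.092), a 1.70-fold lower signal with a 95% interval of 1.46-fold to 1.98-fold, and it ranked 51 from the lowest. Its signal in GFP+FOG1 cells, too, lay below the median of all values, so this change can be understated. Set against the GFP mean of the same probe set, the GFP+FOG1 arrays lay at -3.78 to -3.60 log2 units for BC018473, -1.54 to -1.48 for St6galnac2 and -0.94 to -0.65 for St6galnac1. These values of different probe sets are not ranked, because dim signals compress a change.

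Across the whole table, 78 probe sets (0.224%) passed an adjusted p of 0.05, and 42 of them (0.121%) were lower in GFP+FOG1 cells. Of the 9 members, 3 passed, all lower in GFP+FOG1 cells, but these genes drew attention through that same contrast and nothing is read from their count. Groups lay fully apart with GFP+FOG1 below for the same 3 members, as for 10.5% of all probe sets, and for 19.6% the groups lay apart in either direction. St6galnac1 was just inside the threshold: it missed it in 9 of 13 alternative settings, including each of the 6 that left out 1 array, where its log2 change ranged from -0.82 to -0.68.

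**Figure D1:**
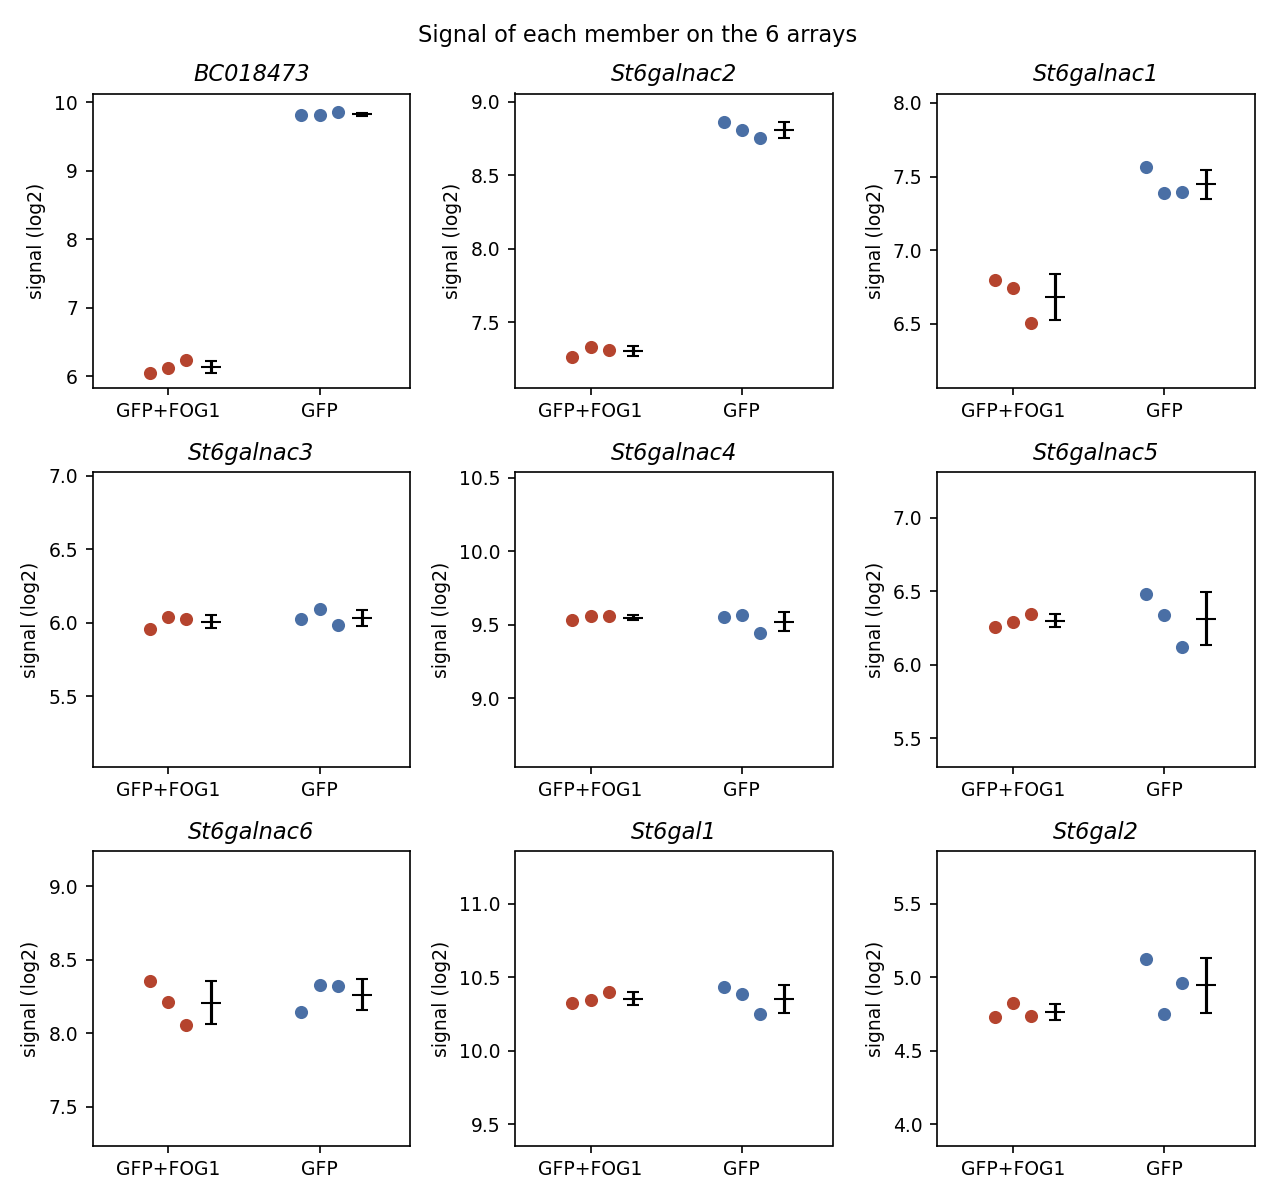
Signal of each of the 9 members in log2 units (vertical axes, each spanning 2 units, and wider for BC018473) on the 3 GFP+FOG1 arrays (red) and the 3 GFP arrays (blue), with the mean and SD of each group as a black bar. BC018473, St6galnac2 and St6galnac1 have groups that lie apart, and the other 6 genes have groups that overlap.

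The other 4 ST6GALNAC genes had overlapping groups. St6galnac4, whose product acts on O-glycans and gangliosides that already carry a sialic acid, had signals of 9.53, 9.56 and 9.56 log2 units on the GFP+FOG1 arrays, against 9.55, 9.57 and 9.45 on the GFP arrays. St6galnac6, known from ganglioside synthesis, had 8.35, 8.22 and 8.06 log2 units on the GFP+FOG1 arrays, against 8.14, 8.33 and 8.32 on the GFP arrays. The GFP+FOG1 arrays lay within the range of the GFP arrays for St6galnac4 and spread beyond it on both sides for St6galnac6. For St6galnac6 the 6 arrays fell in the same order as for the summed signal of 6 stromal markers given below. The part of these markers in its values was not tested. The log2 changes were 0.03 for St6galnac4 (95% interval -0.09 to 0.15) and -0.06 for St6galnac6 (-0.27 to 0.16).

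St6galnac3, an enzyme of sialylated O-glycans and gangliosides, had signals of 5.96, 6.04 and 6.03 log2 units on the GFP+FOG1 arrays, against 6.03, 6.09 and 5.99 on the GFP arrays. St6galnac5, an enzyme of brain gangliosides, had 6.26, 6.29 and 6.35 log2 units on the GFP+FOG1 arrays, against 6.48, 6.34 and 6.12 on the GFP arrays. The log2 changes were -0.03 for St6galnac3 (95% interval -0.15 to 0.09) and -0.01 for St6galnac5 (-0.24 to 0.21). Both probe sets lay below the median signal on all arrays, where a change of the RNA would be understated.

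The ST6GAL genes also had overlapping groups. St6gal1, which encodes the main enzyme capping N-glycans in B cells, had signals of 10.32, 10.34 and 10.40 log2 units on the GFP+FOG1 arrays, against 10.43, 10.38 and 10.25 on the GFP arrays. Its log2 change was 0.0011 with a 95% interval of -0.15 to 0.15, which bounds a fall at 1.11-fold. The single probe set does not tell its starts apart. St6gal2, known from brain, had signals of 4.73, 4.83 and 4.74 log2 units on the GFP+FOG1 arrays, against 5.13, 4.75 and 4.96 on the GFP arrays. GFP replicate 2 lay within the range of the GFP+FOG1 arrays, and the log2 change was -0.18 (95% interval -0.41 to 0.05) at a signal well below the median. Taking these 6 genes as a group, their log2 changes lay between -0.18 and 0.03 with a median of -0.02, within the range of -0.30 to 0.30 that held the middle 95% of all probe sets, whose median was -0.01.

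**Figure D2:**
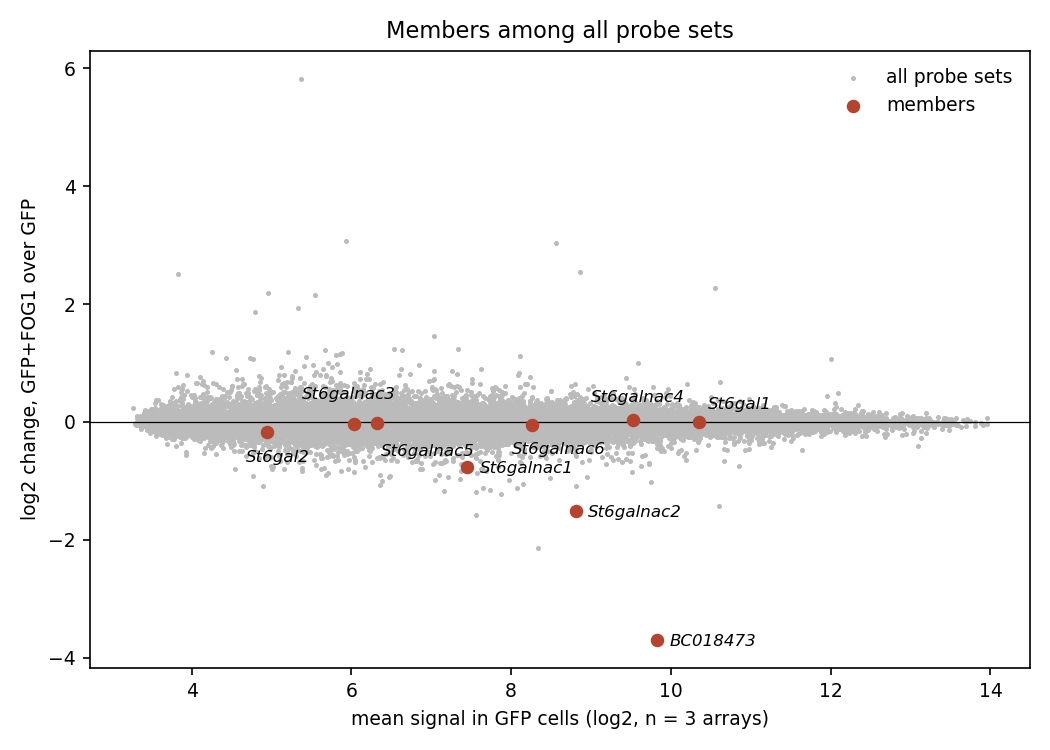
Log2 change of GFP+FOG1 over GFP (vertical axis) against the mean log2 signal in GFP cells (horizontal axis) for all 34760 probe sets (grey) and the 9 members (red, named). BC018473 is the lowest point at -3.70, St6galnac2 and St6galnac1 lie below the grey band, and the other 6 members lie inside it.

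The genes next to the block were then examined, since these were not used in choosing the members. In the RefSeq order of assembly GRCm38.p6, the interval from St6galnac2 to St6galnac1 holds 4 genes, of which Gm11735 was not analysed here. The 8 nearest measured genes on each side were Prpsap1, Sphk1, Ube2o, Aanat, Rhbdf2, Cygb, Prcd and Snhg16 beyond St6galnac2, and Mxra7, Jmjd6, Mettl23, Srsf2, Mfsd11, Mgat5b, Mir6516 and Sec14l1 beyond St6galnac1. None of the 16 passed (limma with Benjamini-Hochberg over all probe sets, adjusted p = 0.38 to 1.00), against 0.224% of all probe sets that did, a share at which a count of 0 among so few genes says little. An unadjusted p under 0.05 was found for 1 of them, Prcd, against 12.5% of all probe sets. Their log2 changes ran from -0.21 to 0.13 with a median of 0.01.

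Snhg16, a noncoding host gene of small nucleolar RNAs and the measured gene next to St6galnac2, had signals of 7.87, 7.85 and 7.85 log2 units on the GFP+FOG1 arrays, against 7.89, 8.25 and 8.06 on the GFP arrays. The GFP+FOG1 arrays lay just below the lowest GFP array. Groups lay apart in this direction for 10.5% of all probe sets. The log2 change of Snhg16 was -0.21 (95% interval -0.43 to 0.01; limma adjusted p = 0.41). Its interval lies above that of St6galnac2, -1.62 to -1.39. As St6galnac2 and St6galnac1 were chosen by this contrast, no edge of the block is read from such intervals. Prcd, a gene of photoreceptor discs, was the only flanking gene with GFP+FOG1 fully above GFP, as were 9.13% of all probe sets. Its log2 change was 0.13 (95% interval 0.01 to 0.25; limma adjusted p = 0.38).

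Mxra7, the measured gene next to St6galnac1 and named after matrix remodelling, had signals of 8.17, 7.98 and 7.49 log2 units on the GFP+FOG1 arrays, against 7.78, 8.16 and 8.18 on the GFP arrays. The groups overlapped, and GFP+FOG1 replicate 3 was the lowest array. The log2 change was -0.16 (95% interval -0.62 to 0.30; limma adjusted p = 0.75), and this interval overlaps that of St6galnac1, -0.99 to -0.55. On the same array the summed linear signal of 6 stromal markers was also lowest, at 1407 units, against 2110 and 2565 on the other GFP+FOG1 arrays and 1930 to 2218 units on the GFP arrays. Among these are Col1a1 and Col1a2, which encode type I collagen chains, and the part of the stromal markers in the Mxra7 values was not tested. The other flanking genes had narrower intervals. The splicing factor gene Srsf2 was at 0.05 (95% interval -0.06 to 0.15), Jmjd6, a gene of a lysyl hydroxylase, at -0.01 (-0.13 to 0.10) and Cygb, the gene of cytoglobin, at 0.01 (-0.10 to 0.11). Mgat5b, a glycosyltransferase gene that also lies on this side, was at -0.06 (-0.23 to 0.11). Upstream windows matched 11 of the 16 flanking genes, 18 windows in all. The GATA site stood in 2 of these 18, against 29.8% of all 32851 windows. These 2 are overlapping windows of Sphk1 that hold the same site.

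**Figure D3:**
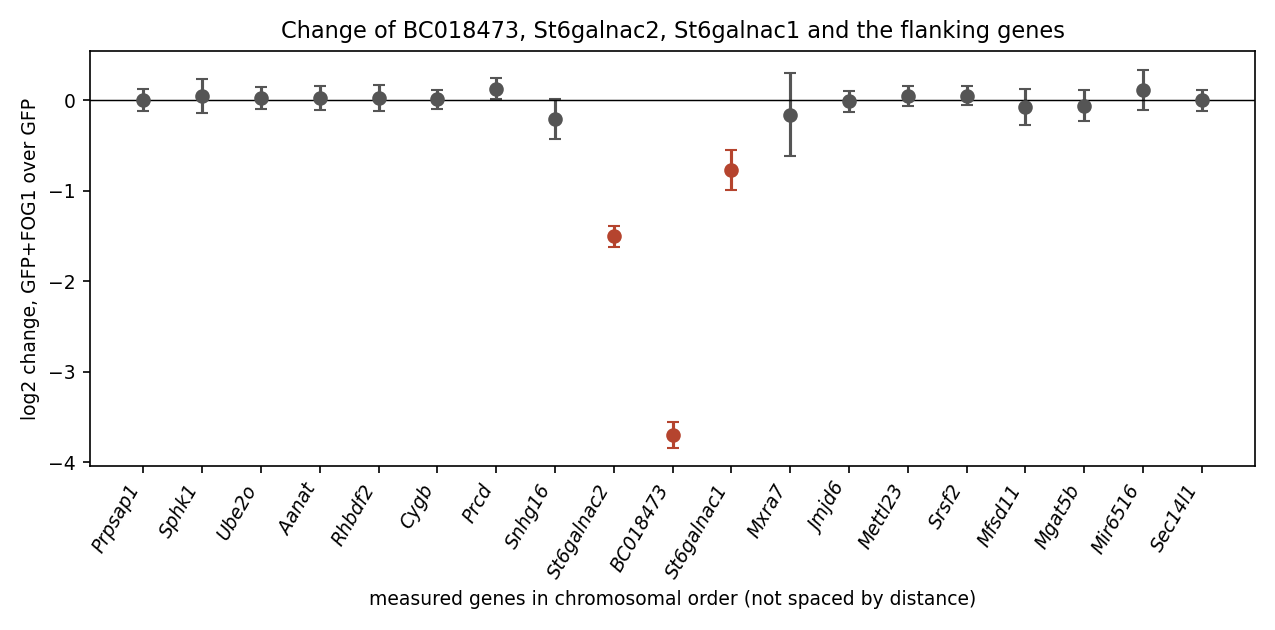
Log2 change of GFP+FOG1 over GFP with its 95% interval from the limma fit (vertical axis) for the measured genes in chromosomal order (horizontal axis, not spaced by distance), with the 3 members in red and the 16 flanking genes in grey. The members lie at -1.50, -3.70 and -0.77, and the flanking genes lie between -0.21 and 0.13.

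Genes that make, attach, remove or read sialic acid, or build the glycans that carry it, were set beside the family in 9 lists. These held 82 entries, of which 81 were measured. None passed over all probe sets (limma), against 0.224% of all probe sets that did. At that share a count of 0 among 81 genes, or in any single list, says little. An unadjusted limma p under 0.05 was found for 9 of them (11.1%), against 12.5% of all probe sets. The median log2 change of the 81 genes was -0.01, as for all probe sets. Groups lay apart with GFP+FOG1 below for 9 genes (11.1%, against 10.5% of all probe sets) and above for 7 (8.64%, against 9.13%). Only 45 of the 81 reached the median signal, and below it a change of the RNA can be understated. Of the genes named in the following paragraphs, this limit also holds for Renbp, Neu2, Galnt6, B3gnt3, B4galt6, Mag and Siglecf.

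Of the 6 alpha-2,3-sialyltransferases, none passed, and their median log2 change was -0.06. St3gal1, which caps the galactose of O-glycans, had signals of 9.10, 9.09 and 9.04 log2 units on the GFP+FOG1 arrays, against 9.39, 9.39 and 9.42 on the GFP arrays. The groups lay apart with little spread, but the log2 change of -0.33 (SE 0.043, a 1.25-fold lower signal) missed the threshold (limma adjusted p = 0.067). A dimmer probe set of St3gal1 differed in direction, at a log2 change of 0.07 with overlapping groups (limma adjusted p = 0.73). St3gal2, also acting on O-glycans and gangliosides, was at -0.17, and St3gal5, which makes the ganglioside GM3, at 0.11. The alpha-2,8-sialyltransferases, which build sialic acid chains, had a median of 0.06 over 6 genes with none passing. St8sia4, a polysialyltransferase gene, was at 0.07, St8sia6 at 0.08 and St8sia5 at -0.07, and only 1 of the 6 reached the median signal.

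The supply of donor sugar showed small values. Over the 6 genes of CMP-sialic acid synthesis and transport the median log2 change was 0.04 and none passed. Nans, the sialic acid synthase gene, was at 0.07, Slc35a1, which encodes the Golgi carrier of CMP-sialic acid, also at 0.07, and Cmah, whose product hydroxylates CMP-sialic acid, at -0.08. Gne, which encodes the enzyme of the committed step of sialic acid synthesis, was at 0.0027. Among 11 genes of sialic acid removal and recycling the median was -0.03 and none passed. Renbp, the gene of renin binding protein, a GlcNAc epimerase, was at -0.22 (limma adjusted p = 0.26), Ctsa, which encodes the protective protein of lysosomal sialidase, at -0.08 and the sialidase gene Neu2 at -0.08.

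The enzymes that build the acceptors of ST6GALNAC and ST6GAL enzymes did not pass either. Among 19 genes of O-GalNAc initiation the median log2 change was -0.03, with Galnt1 at 0.16, Galnt6 at 0.12 and Galntl6 at -0.14. The other probe sets of Galntl6, all dim, were at 0.07 and 0.0057. Among 7 genes of O-glycan core extension it was -0.01, or 0.11 over the 2 of them left without dim probe sets, with the galactosyltransferase gene C1galt1 at 0.15, Gcnt1, which branches O-glycans, at 0.08 and B3gnt3 at -0.07. Among 12 measured genes of N-glycan branching and galactosylation it was 0.04. The galactosyltransferase genes B4galt3 and B4galt4 were at 0.24 and 0.22 (limma adjusted p = 0.15 and 0.25). Mgat1, which opens the path to complex N-glycans, was at -0.10. All GFP+FOG1 arrays lay above all GFP arrays for 3 of the 12 genes, B4galt3 and B4galt4 among them (25%, against 9.13% of all probe sets). They lay below for 1, Mgat1 (8.33%, against 10.5%).

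The 5 genes of ganglioside core synthesis had the lowest median of the 9 lists, -0.20, with none passing. For 3 of the 5, all GFP+FOG1 arrays lay below all GFP arrays, as for 10.5% of all probe sets, and the same 3 had an unadjusted p under 0.05, as 12.5% of all probe sets did. These were Ugcg, which encodes glucosylceramide synthase, at -0.20 (limma adjusted p = 0.27), and the lactosylceramide synthase genes B4galt5 at -0.20 (adjusted p = 0.23) and B4galt6 at -0.27 (adjusted p = 0.35). Among the 9 Siglec receptor genes, whose products bind sialic acid, the median was 0.0062 and none passed. Cd22, the receptor of alpha-2,6-linked ligands on B cells, was at 0.0071, Siglecg, a related B-cell inhibitor, at 0.09, the myelin gene Mag at -0.11 and Siglecf at -0.06.

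**Figure D4:**
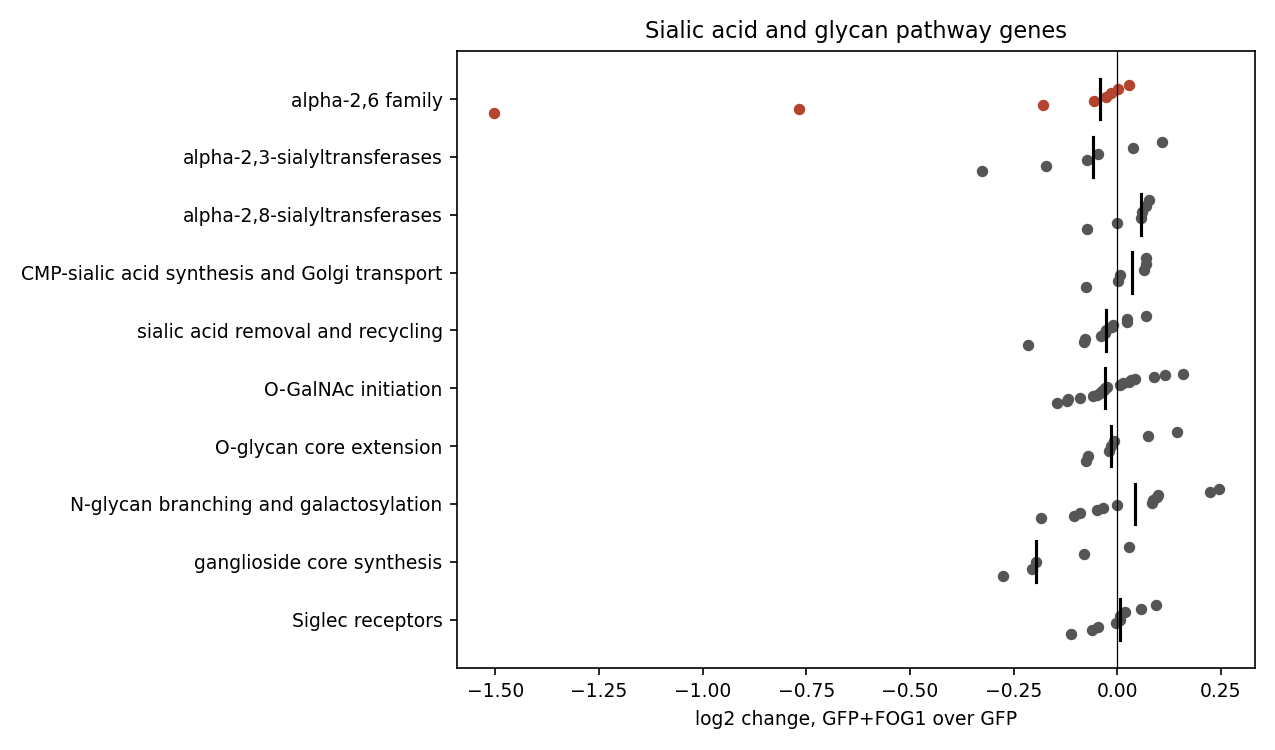
Log2 change of GFP+FOG1 over GFP (horizontal axis) for the 8 alpha-2,6-sialyltransferase genes (red, top row) and for the genes of 9 sialic acid and glycan lists (grey), 1 point a gene, with the median of each row as a black bar. St6galnac2 and St6galnac1 lie at -1.50 and -0.77, and all points of the other lists lie between -0.33 and 0.24.

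Genes whose values ordered the 6 arrays most like BC018473 and St6galnac2 were found by Pearson correlation over the 6 arrays, which here mostly reflects the step between the groups. St6galnac2 and BC018473 correlated with each other at 0.9985, and St6galnac1 at 0.957 with BC018473 and 0.966 with St6galnac2. Outside the family, the 5 most alike to BC018473 were Crhbp (0.9967), Gdpd3, Megf9, Pqlc3 and Itgam (0.992), and to St6galnac2 Megf9 (0.9973), Gdpd3, Zhx2, Crhbp and Ldlrad4 (0.993). All of these genes were lower in GFP+FOG1 cells on every array, as were 10.5% of all probe sets. Choosing genes by likeness to a step between the groups favours this, so nothing is read from it. Their log2 changes ran from -2.14 for Gdpd3 to -0.24 for Pqlc3. Megf9 and Pqlc3 did not pass (limma adjusted p = 0.12 and 0.13). With 1 array left out, 0 to 2 of each set of 5 stayed among the 5 most alike.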

How the data were processed

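The authors deposited log2 signals, a table of 34760 probe sets by 6 arrays. The log2 scale was read from the values, 3.12 to 14.07, with array medians of 6.98 to 7.04. Of tools, the submitters' processing notes list affy. How background, normalization and probe set summary were handled is not given in the sources used here. Per the labels' protocols, 100 ng of total RNA was amplified as sense-strand cDNA. A normalization to 1 distribution would hide a shift of most genes. The number of arrays limits the precision.

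Probe sets were named from the platform annotation (21640 with 1 symbol, 1321 with several and 11799 with none here), with symbols checked by Entrez identifier against RefSeq genes of GRCm38.p6, which held 19855 genes and changed 0 symbols. The comparison used limma 3.58.1 under R 4.3.3 (lmFit, eBayes, no block), and p-values were adjusted by Benjamini-Hochberg over all probe sets. Fold changes are GFP+FOG1 over GFP, and 95% intervals come from the moderated fit. Where a list gene had several 1-symbol probe sets, the brightest on average was used. The text names all members, Zfpm1, the 8 measured genes on each side, markers, up to 3 genes a list by unadjusted p (others, such as Gne and Cd22, for their role) and the 5 most alike genes. The members, lists and rules were chosen with earlier results of these data known. The fit was also run on simulated data with independent noise on each array, which cannot show the effect of a shared infection. Figures were drawn with matplotlib 3.10.9.

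Alternatives were quantile normalization, median centring, dropping dim probe sets, testing 1-symbol probe sets only, a replicate block, robust eBayes with a variance trend, array weights, dropping single arrays, a mean over a gene's probe sets and an added 2-fold minimum.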

Additional observations from a re-analysis of the deposited data

How the results depend on the processing

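The directions of BC018473, St6galnac2, St6galnac1 and Zfpm1 held in all 13 alternatives run for them. The count of all passing probe sets, 78, was 116 with a variance trend, 102 with 1-symbol probe sets only, 94 without dim probe sets, 87 with array weights, 73 after quantile normalization, 64 after median centring, 9 with the replicate block, 23 with an added 2-fold minimum and 17 to 38 without 1 array, where fewer samples are one reason. Of the members, 3 passed, or 2 where St6galnac1 missed the threshold, which it did after quantile normalization, after median centring, with the replicate block and without any 1 array. Zfpm1 kept a log2 change of 0.74 with the replicate block but missed the threshold there (limma adjusted p = 0.097). The replicate numbers were not treated as pairs, because they are not stated to mark a shared day or culture. Deviations from the group means correlated at -0.07, 0.01 and -0.04 between arrays of equal number. Of the 6 arrays, 0 correlated best with the array of its own number. Of the list genes 0 passed, except 1, St3gal1, without dim probe sets (limma adjusted p = 0.025), with 1-symbol probe sets only (0.028) and with the variance trend (0.028), and St3gal1 lay between 0.057 and 0.29 in the other alternatives. The cause of these moves was not tested. None of the 16 flanking genes passed in any of 13 alternatives. The log2 change of BC018473 ranged from -3.75 to -3.65 and that of St6galnac2 from -1.53 to -1.48. For St6gal2, St6galnac3 and St6galnac5, a signal below the median limits what the arrays can show.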
